A study of Mus musculus with 27 samples.

Results

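The level of 10 naive pluripotency transcription factors was followed through the loss of Zfp512b in mouse embryonic stem cells (mESCs) and their differentiation. The genes were chosen by name, as transcription factors known to hold mESCs in the naive state, and their rows were read in all 8 deposited tables, which list 25209 genes each. They are Nanog, Klf2, Klf4, Klf5, Esrrb, Tfcp2l1, Zfp42, Tbx3, Prdm14 and Nr0b1. The study sequenced RNA of the V6.5 line in 27 libraries. WT cells and the 2 knockout clones KO #4 and KO #8 had 3 libraries each in the naive state (Day 0, 2iLIF medium, which holds LIF, PD0325901 and CHIR99021). They had 2 libraries each as primed cells (Day 2, serum medium with LIF), after differentiation towards cardiomyocytes (CMs, Day 7.5, from embryoid bodies with vitamin C) and after differentiation towards neural progenitor cells (NPCs, Day 10, from embryoid bodies with retinoic acid). In both clones a triple transcription terminator with mCherry or a puromycin resistance gene was inserted after exon 3 of Zfp512b on both alleles. WT cells carried no insertion and had not gone through the selection, and each of KO #4 and KO #8 is 1 clone, so that a clone's own history and the loss of Zfp512b cannot be told apart within it. NPCs were collected as embryoid bodies, and CMs came from plated embryoid bodies with no purification step described. The CM and NPC libraries can therefore hold other cell types.

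Naive mESCs stand for the cells of the early epiblast, and LIF, acting through STAT3, and the MEK inhibitor PD0325901 and the GSK3 inhibitor CHIR99021 keep them there by holding a network of transcription factors active. Within this network Esrrb, Tfcp2l1, the Klf factors, Tbx3 and Nanog activate one another and partly stand in for each other. Zfp42 (also called Rex1) is the usual reporter of the naive state. As cells move towards the primed state and then differentiate, the network is shut down, while Pou5f1 and Sox2 go on longer. Several members are also used outside the embryo's first cells, such as Klf2 in endothelium, Klf4 and Klf5 in epithelia, Tbx3 in heart and endoderm, and Tfcp2l1 in epithelia.

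In mm9, the build of the tables, Nanog lies at chr6:122657507-122664651, Esrrb at chr12:87702067-87862578, Prdm14 at chr1:13103538-13117244, Nr0b1 at chrX:83437103-83441286, Tbx3 at chr5:120120678-120134733 and Tfcp2l1 at chr1:120524522-120581744. Klf4 lies at chr4:55540013-55545347 and Klf5 at chr14:99697910-99712624. Klf2 (chr8:74842932-74845555) and Zfp42 (chr8:44380422-44392363) share chromosome 8, whose tested genes were shifted as a whole in both clones (median log2 difference from WT between 0.40 and 0.52 in primed cells, NPCs and CMs, against -0.07 to -0.02 for the other chromosomes). All 10 genes are annotated as protein-coding.

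Promoter sequence was at hand for 7 of the 10 genes in RefSeq (build GRCm38.p6). Klf5, Tbx3 and Prdm14 were not matched. The 250 bases before the start of 4 genes are shown, written 5′ to 3′ on the strand of the gene, as examples of genes whose changes are described below. Nanog, Zfp42 and Nr0b1 were moved in opposite directions in the CMs of the 2 clones, and Klf2 was lower in both. Esrrb was also moved in opposite directions and had promoter sequence, but is not shown. Capitals mark the octamer core TTTGCAT, which is bound by Pou5f1, and the GC box GGGCGG, on either strand. Occurrences of the 2 motifs do not overlap each other here.
Nanog, chr6:122707239-122707488, plus strand: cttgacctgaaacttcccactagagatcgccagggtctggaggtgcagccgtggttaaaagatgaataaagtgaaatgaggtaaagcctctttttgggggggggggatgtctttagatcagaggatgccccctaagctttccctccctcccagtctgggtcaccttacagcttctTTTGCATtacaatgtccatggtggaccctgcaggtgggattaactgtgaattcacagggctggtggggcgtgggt
Zfp42, chr8:43307010-43307259, minus strand: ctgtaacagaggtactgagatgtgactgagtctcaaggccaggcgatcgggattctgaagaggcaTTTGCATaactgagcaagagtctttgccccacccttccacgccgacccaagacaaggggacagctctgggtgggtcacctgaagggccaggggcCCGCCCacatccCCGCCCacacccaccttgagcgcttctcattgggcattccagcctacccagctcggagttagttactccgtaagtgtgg
Nr0b1, chrX:86191525-86191774, plus strand: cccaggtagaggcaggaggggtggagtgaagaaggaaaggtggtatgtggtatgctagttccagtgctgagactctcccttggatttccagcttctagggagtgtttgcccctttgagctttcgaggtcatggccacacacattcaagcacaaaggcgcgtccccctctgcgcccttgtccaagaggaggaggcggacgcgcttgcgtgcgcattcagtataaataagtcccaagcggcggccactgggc
Klf2, chr8:72318812-72319061, plus strand: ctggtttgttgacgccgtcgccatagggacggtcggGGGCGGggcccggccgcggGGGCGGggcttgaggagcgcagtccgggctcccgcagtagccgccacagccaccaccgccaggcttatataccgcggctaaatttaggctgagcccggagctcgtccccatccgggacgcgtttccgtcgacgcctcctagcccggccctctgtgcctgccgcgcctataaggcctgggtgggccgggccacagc
The octamer core was found in 2 of the 7 genes, 75 bases before the first start of Nanog and 185 bases before that of Zfp42, and in 4.12% of all 32851 promoter entries. The GC box was found in Klf2, Klf4 and Zfp42, and in 32.7% of all entries. A match of these letters is a description and does not show that a factor binds there.

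The tables hold no count per library. Their base mean is the mean over the libraries compared, WT and 1 clone, of the read count divided by the size factor of the library. At the stages with 2 libraries per group, the tables of KO #4 and KO #8 share the WT libraries. Whole read counts of the 6 libraries were recovered for genes where exactly 1 set of counts within a search region gave both base means. In this region the 2 libraries of a group differed by at most 30 normalised reads plus 0.5 times their mean. Genes with no set within it were sought again in a wider region if both base means were at most 1000. The search covered genes whose smaller base mean was at most 1000, and recovered between 96.52% and 99.22% of them per stage. All 10 members were recovered in CMs, 9 in NPCs (not Tbx3) and 2 in primed cells (Tbx3 and Prdm14). In naive cells, with 9 libraries behind 2 base means, none was recovered. Libraries of a group are called a and b, a being the deeper. They could not be tied to the replicate numbers of the labels. Nothing in the labels says whether the libraries of a group came from separate cultures, so that p-values measure the spread between libraries, which may be technical. For genes with further sets in the wider region, this spread, its standard error and the p-value also depend on the limit of the search. Each library held between 15.1 M and 19.3 M reads on genes, and between 34.2 M and 39.7 M in naive cells. Zfp512b itself, the targeted gene (chr2:181316808-181327508), had normalised read counts of 928.6 and 977.1 in primed WT libraries, 191.4 and 218.5 in KO #4 and 184.4 and 154.2 in KO #8. In CMs it fell from 1118.0 and 1060.1 to 183.7 and 209.3 in KO #4 (limma, adjusted p = 8.74e-08) and to 154.9 and 173.1 in KO #8 (limma, adjusted p = 2.81e-06), with 3 sets of counts once libraries may lie further apart. Cell type markers fit the CM label, since the summed level of 10 cardiomyocyte genes was 2387.2 CPM (base mean per 1000000 of the summed base means of a table) in CM tables against 53.3 in naive, 31.3 in primed and 15.5 in NPC tables. The NPC label was less clear. The summed level of 10 neural progenitor genes was highest there (590.2 CPM against 378.7 in CMs), but Pax6 stood at only 17.5 and 17.2. In single tables this sum was 556.3 (KO #4) and 624.1 (KO #8) in NPCs, and 545.0 (KO #4) and 212.4 (KO #8) in CMs. In NPC tables the sums of the endoderm list (850.7 CPM) and the epithelium list (614.0 CPM) were above the neural one. Of the 10 genes of the endoderm list, Gata6 and Gata4 stood at 445.3 and 375.8 CPM in the KO #4 table. All others of this list were far lower there, between 2.52 (Apob) and 29.2 (Sox7). In primed tables Dnmt3b stood at 1115.2 and 1183.7 CPM against 152.0 and 150.5 in naive ones, while Fgf5 was at 2.04 and 2.27.

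All 10 genes were lower in NPC and CM tables than in naive ones, and their paths to that point differed. Levels across stages are given in CPM, as the stages were normalised separately. They combine WT and clone libraries and have no error. Tfcp2l1, a target of STAT3, stood at 1264.7 CPM in the naive KO #4 table and 1327.4 in the KO #8 table. It was already at 210.5 and 206.4 in primed cells, a log2 difference from naive of -2.59 and -2.69. Prdm14, which represses DNA methyltransferases, and Tbx3, a T-box factor, dropped about as far by Day 2 (log2 difference -2.40 and -2.48 for Prdm14, and -2.16 and -2.20 for Tbx3). Nanog lost less, from 787.9 and 810.8 to 297.0 and 289.8 CPM. In contrast, Zfp42 stayed at 414.1 and 389.2 CPM in primed cells against 386.7 and 378.0 in naive ones, and Nr0b1 (also called Dax1), an orphan nuclear receptor that partners other factors of the network, was above its naive level, with 196.4 and 197.7 CPM against 85.4 and 83.7. Klf5 was also slightly above its naive level (log2 difference 0.42 and 0.36).

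**Figure D1:**
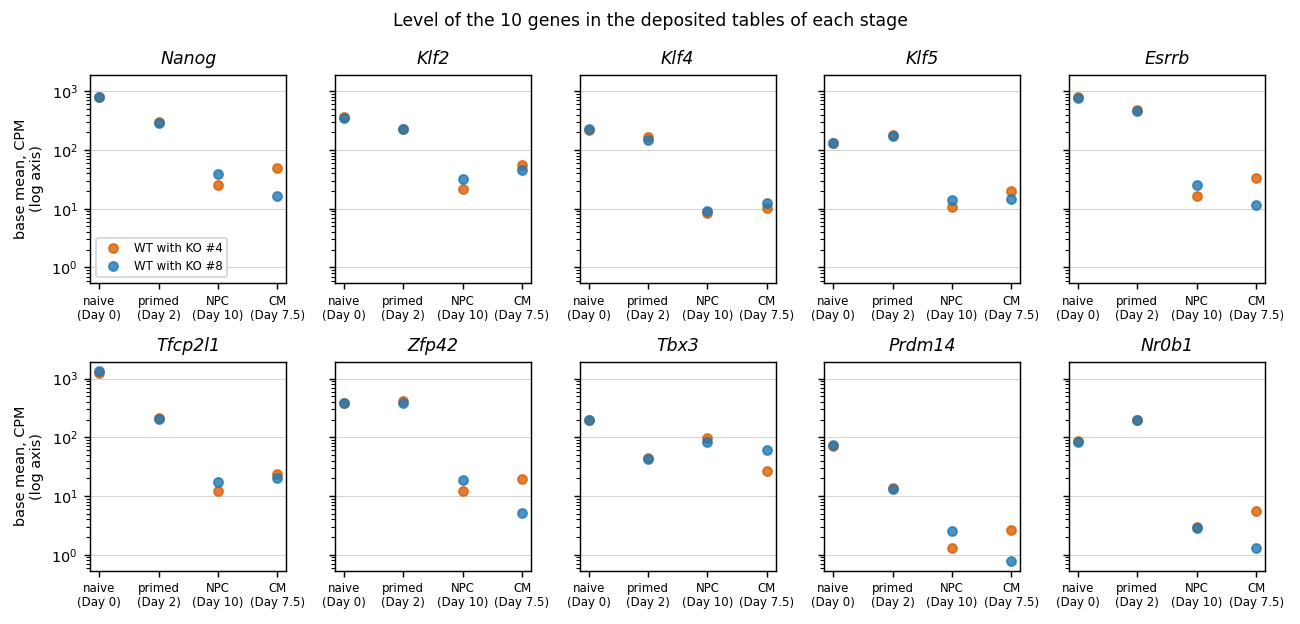
Base mean in CPM (log axis) of each of the 10 genes at 4 stages, with 1 point for the table of WT and KO #4 libraries and 1 for the table of WT and KO #8 libraries. At Day 0 and Day 2 the points of both tables nearly coincide, whereas in NPCs and CMs those of Nanog, Esrrb, Zfp42 and Prdm14 part, with KO #8 above in NPCs and KO #4 above in CMs.

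By Day 10 most members were down to a few percent of the naive level or less. In NPC tables the log2 difference from naive was -6.70 and -6.26 for Tfcp2l1, -5.57 and -4.94 for Esrrb, and -4.86 and -4.86 for Nr0b1. Tbx3 was the exception, with 96.9 and 84.5 CPM in NPCs against 43.8 and 42.9 in primed cells, a higher level than on Day 2. Per kilobase of exon, which allows a comparison between genes, the naive order was led by Nanog (356.5 CPM per kilobase), Zfp42 (212.4) and Klf2 (191.1) and closed by Tbx3 (36.6) and Prdm14 (28.2). In NPCs Tbx3 led with 16.9, close to Klf2 with 14.5 and Nanog with 14.3, and in CMs Klf2 led with 27.2. As these values have no spread, no order of neighbours can be tested. Whether the stages were sequenced together is not given in the sources used here, and stage and sequencing run cannot be told apart.

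In naive cells the clones differed little from each other in these genes. The KO #4 and KO #8 tables share the WT libraries, and therefore 2 times the difference of their base means, once put on the same scale, is the difference between the mean of the KO #4 libraries and that of the KO #8 libraries. The difference of each clone from WT cannot be had in this way and is not given for naive cells. The differences between the clones lay between -8.75% (Tfcp2l1, higher in KO #8) and 8.92% (Klf2, higher in KO #4) of the mean base mean, with 5 genes higher in KO #4 and 5 in KO #8. Nanog differed by -4.79% and Esrrb by 6.87%. For Klf4 (-0.166%) and Tbx3 (-0.142%) the difference was within the error of the common scale. Among the 13737 genes with base means of 10 or more, 5% lay below -39.4% and 5% above 23.5%. No spread between libraries was available for these values, so they were not tested.

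In primed cells Tbx3 and Prdm14, the 2 members with recovered counts, were lower in both clones. Tbx3 had normalised read counts of 891.6 and 926.2 in WT, 632.1 and 577.6 in KO #4 and 620.6 and 519.6 in KO #8. All 4 knockout libraries lay below both WT libraries. The log2 difference was -0.59 ± 0.09 (SE, 2 libraries per group) in KO #4 (limma on log2 of the normalised count plus 1, adjusted p = 2.12e-06 with Benjamini-Hochberg adjustment over 9225 genes) and -0.68 ± 0.09 in KO #8 (limma, adjusted p = 2.36e-07). For Tbx3 this is 1 of 3 sets of counts once the libraries of a group are allowed to lie further apart. Prdm14 went from 293.7 and 271.5 in WT to 170.0 and 194.9 in KO #4 and 180.3 and 163.3 in KO #8. Its log2 difference was -0.63 ± 0.14 (limma, adjusted p = 0.00104) and -0.72 ± 0.14 (limma, adjusted p = 0.000298). Both members were thus called lower (2 of 2), where 11.1% of all tested genes were called lower in KO #4 and 6.96% in KO #8. Between the clones neither was called different (0 of 2 with limma, also 0 at an unadjusted p under 0.05, against 2.97% of all genes called). The log2 difference KO #4 minus KO #8 was 0.09 ± 0.09 for Tbx3 and 0.08 ± 0.14 for Prdm14.

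Markers of other cell states also moved in both clones in primed cells. Over all 9225 tested genes, 755 were called higher and 1020 lower in KO #4, and 691 higher and 642 lower in KO #8. Of 5 tested genes of the formative or primed epiblast, Lef1 (log2 difference -1.21 in KO #4 and -0.65 in KO #8) and Otx2 (-0.65 and -0.42) were lower in both clones and Sall2 was higher in KO #4. Of 5 tested neural progenitor genes Sox1 was higher in both clones (1.29 and 0.83) and Nes in KO #8. Of 7 germ cell genes, Kit, Tfap2c and Dppa3 were lower and Ddx4 higher in both, and Dazl was higher in KO #8. Of 6 tested cardiomyocyte genes, 2 were lower in KO #4, and 1 was higher and 1 lower in KO #8. In KO #8 alone, 2 of 5 endothelium genes were lower and 1 of 6 endoderm genes was higher. The part of these markers in the values of Tbx3 and Prdm14 was not tested.

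The other 8 members had primed base means above 1000 and were read from the tables only. Their clone difference ranged from -1.34% for Klf2 to 20.2% for Klf4, a factor that LIF induces through STAT3. With the difference of 11% for Esrrb and 12.6% for Zfp42, 8 of the 10 genes had the higher mean in KO #4, as had 48.8% of all genes. These values have no error and were not tested. Of 20 other genes of the naive state only Dppa3 had a recovered count and enough reads to be tested in primed cells. Dppa3 is also among the germ cell genes given above. It was lower in both clones (log2 difference -0.34 ± 0.11, limma, adjusted p = 0.0305, and -0.33 ± 0.11, limma, adjusted p = 0.0452). Of 9 genes of LIF and STAT3 signalling 2 were tested, of which 1 was lower in KO #4 and none was called in KO #8.

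In CMs, the clones moved apart. Nanog, Esrrb, Zfp42 and Nr0b1 were higher than WT in KO #4 and lower than WT in KO #8, and Prdm14 followed in KO #8. Of 10 members, 4 were called higher and 3 lower in KO #4, where 23.7% of all 9276 tested genes were called higher and 30.3% lower. In KO #8, 1 was called higher and 8 lower, against 11.0% and 12.6% of all genes. The median log2 difference of the 10 genes was 0.77 in KO #4 and -1.52 in KO #8, beside -0.05 and -0.01 over all tested genes. Called in both clones in opposite directions were 5 members and 530 of the 9276 genes (5.71%). Both comparisons use the same WT libraries. In a bulk sample, fewer cells of a type and less RNA per cell cannot be told apart.

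Nanog, a homeodomain factor that sets the threshold for leaving pluripotency, had normalised read counts of 359.0 and 515.3 in WT, 1412.0 and 1210.3 in KO #4 and 139.0 and 176.2 in KO #8. The 3 groups did not overlap, and the KO #4 libraries were highest. The log2 difference was 1.60 ± 0.17 in KO #4 (limma, adjusted p = 2.25e-05) and -1.45 ± 0.17 in KO #8 (limma, adjusted p = 0.00028). Esrrb, an orphan nuclear receptor released by inhibition of GSK3, stood at 307.7 and 369.5 in WT, 1087.7 and 666.7 in KO #4 and 95.8 and 77.8 in KO #8. Although the KO #4 libraries differed between themselves, both were above WT, with log2 differences of 1.33 ± 0.21 (limma, adjusted p = 0.000362) and, in KO #8, -1.95 ± 0.21 (limma, adjusted p = 0.000177). For Zfp42, a zinc finger protein on chromosome 8, the counts were 128.7 and 175.4 in WT, 669.1 and 417.5 in KO #4 and 36.6 and 30.7 in KO #8. The log2 difference of 1.81 ± 0.25 in KO #4 (limma, adjusted p = 0.000139) exceeded the median of 0.49 of the 445 tested genes of its chromosome, and that of -2.13 ± 0.25 in KO #8 (limma, adjusted p = 0.000255) ran against a median of 0.52.

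**Figure D2:**
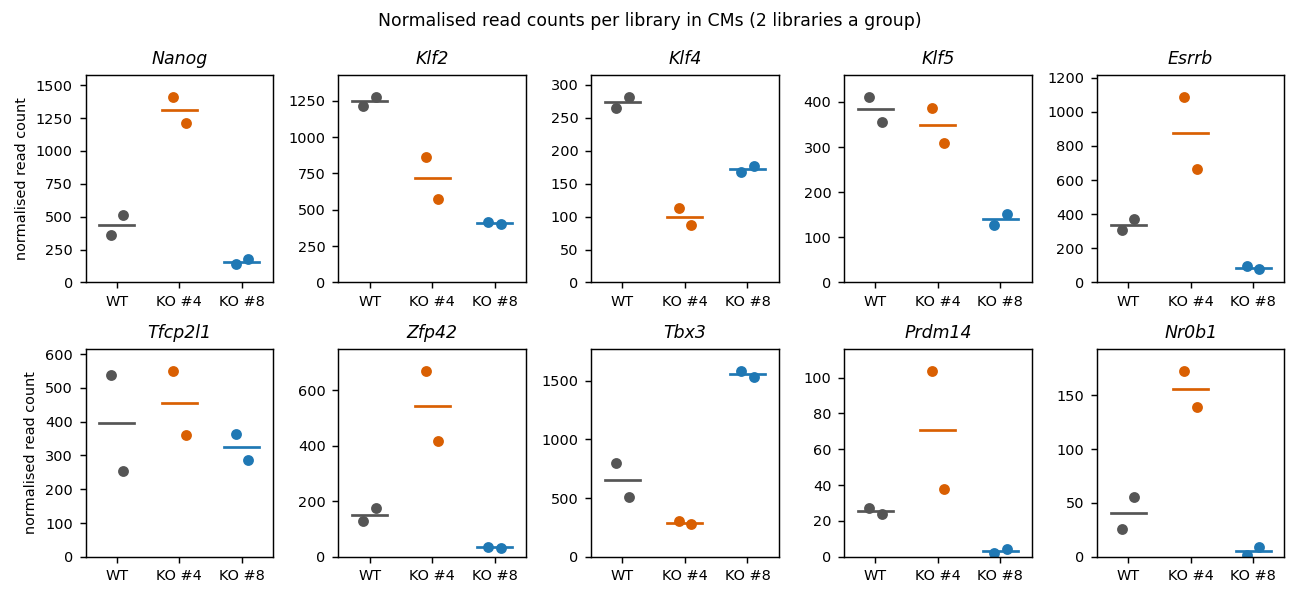
Normalised read count of each library (points) and mean of the 2 libraries of a group (lines) for the 10 genes in CMs, each panel starting at 0. Nanog, Esrrb, Zfp42, Prdm14 and Nr0b1 are highest in KO #4 and lowest in KO #8, Klf2 and Klf4 are highest in WT, and Tbx3 is highest in KO #8.

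Nr0b1 and Prdm14 had few reads in CMs. Nr0b1 was at 26.1 and 55.2 in WT, 172.4 and 138.8 in KO #4 and 1.9 and 9.2 in KO #8, the last from 2 and 9 reads. Its log2 difference was 2.00 ± 0.57 in KO #4 (limma, adjusted p = 0.0126) and -2.85 ± 0.57 in KO #8 (limma, adjusted p = 0.00511). The WT libraries differ by a factor of 2.11, and the KO #4 call was lost without WT library a (limma, adjusted p = 0.124) or KO #4 library a (limma, adjusted p = 0.0661), the KO #8 call without WT library b (limma, adjusted p = 0.0656). Prdm14 showed 27.0 and 23.6 in WT, 103.6 and 37.9 in KO #4, and 1.9 and 4.1 in KO #8, from 2 and 4 reads. Both KO #4 libraries were above WT but far apart, and the log2 difference of 1.28 ± 0.55 was not called (limma, adjusted p = 0.0713). It was called with the pseudocount 5 (limma, adjusted p = 0.0321), with voom weights (limma, adjusted p = 0.038), with only KO #4 and WT in the fit (limma, adjusted p = 0.0428) and without KO #4 library b (limma, adjusted p = 0.0207). In KO #8 the log2 difference was -2.78 ± 0.55 (limma, adjusted p = 0.00471), and it narrowly missed the threshold without KO #8 library a (limma, adjusted p = 0.0506).

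The Klf factors were not called higher than WT in KO #4. Klf2, through which MEK inhibition supports the naive state, had normalised read counts of 1214.0 and 1276.9 in WT, 863.0 and 571.0 in KO #4 and 418.8 and 404.5 in KO #8. It was lower in both clones, by -0.83 ± 0.15 (limma, adjusted p = 0.000981) and -1.59 ± 0.15 (limma, adjusted p = 8.02e-05), while the genes of its chromosome were raised by a median of 0.49 and 0.52. Klf4 went from 264.8 and 281.8 in WT to 112.9 and 87.3 in KO #4 and 168.1 and 177.2 in KO #8. Here KO #4 was the lower clone (log2 difference -1.45 ± 0.18, limma, adjusted p = 5.45e-05). The smaller change in KO #8 (-0.66 ± 0.18, limma, adjusted p = 0.022) lost its call without any 1 of the 4 libraries compared (adjusted p between 0.0678 and 0.135). Klf5, which acts beside Klf2 and Klf4 and also in trophectoderm, fell in KO #8. It stood at 411.2 and 355.7 in WT, 386.9 and 309.2 in KO #4 and 127.7 and 151.6 in KO #8. The KO #4 and WT libraries overlapped (log2 difference -0.14 ± 0.16, limma, adjusted p = 0.467), and in KO #8 the log2 difference was -1.45 ± 0.16 (limma, adjusted p = 0.000188). The clones themselves differed for Klf5 by 1.31 ± 0.16 (limma, adjusted p = 5.3e-05). For Klf2 the counts used are 1 of 8 sets once the libraries of a group are allowed to lie further apart.

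Tbx3 moved opposite to Nanog in both clones. Its normalised read counts were 801.9 and 511.3 in WT, 303.7 and 279.7 in KO #4, and 1582.1 and 1530.1 in KO #8. The groups did not overlap, and KO #8 libraries were highest. The log2 difference was -1.13 ± 0.17 in KO #4 (limma, adjusted p = 0.000195) and 1.28 ± 0.17 in KO #8 (limma, adjusted p = 0.000428). With libraries further apart 13 sets of counts gave these base means, but the order of the clones also follows from the base means alone, with a KO #4 mean minus KO #8 mean of -1264.0 normalised reads and an error of the scale of at most 10.8. That order does not give the place of KO #4 relative to WT, which rests on the set of counts used. Tfcp2l1 was not called in any comparison of CMs. The WT libraries, with 539.0 and 255.2, spanned a wide range. KO #4 had 550.0 and 359.6 and KO #8 had 363.4 and 285.7, so that all 3 groups overlapped. The log2 differences were 0.26 ± 0.30 (limma, adjusted p = 0.482) and -0.20 ± 0.30 (limma, adjusted p = 0.677). Without WT library a, that of KO #4 became 0.80 (limma, adjusted p = 0.0339). The endoderm genes Apoa1 (585.6 and 136.0) and Foxa2 (651.8 and 310.4) also differed between WT libraries a and b in this order, as did 4 of the 5 tested endoderm genes, whereas Sox7 went the other way (1007.0 and 1152.7). Their part in the values of Tfcp2l1 was not tested.

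**Figure D3:**
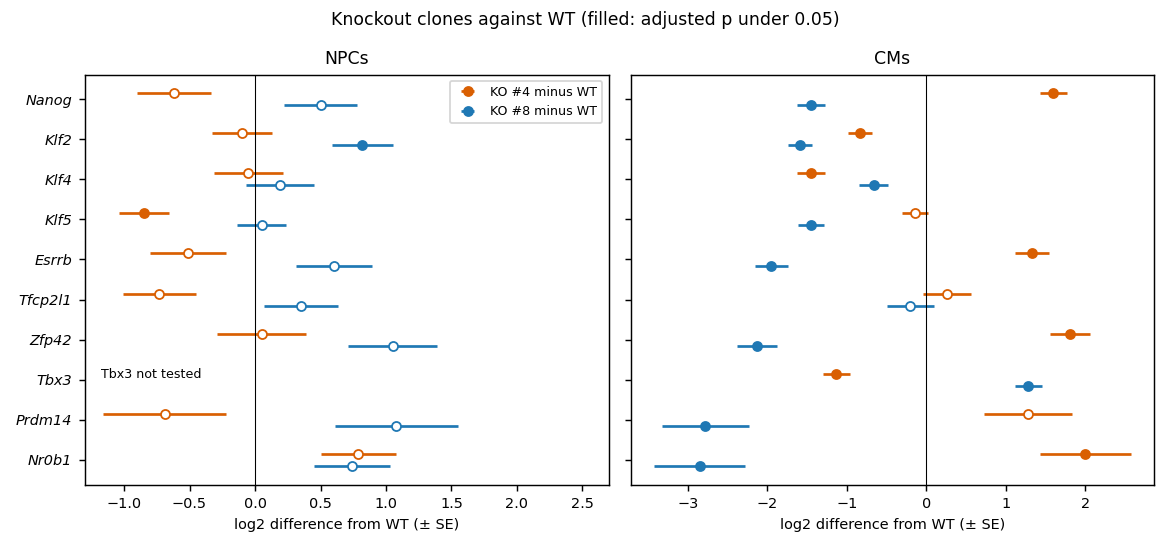
Log2 difference of KO #4 and KO #8 from WT with its standard error in NPCs and CMs, from limma on log2 of the normalised count plus 1. Filled points had an adjusted p under 0.05. In CMs the 2 clones lie on opposite sides of 0 for Nanog, Esrrb, Zfp42, Tbx3, Prdm14, Nr0b1 and Tfcp2l1, with Prdm14 not called in KO #4 and Tfcp2l1 in neither clone, whereas in NPCs 1 gene per clone was called, Klf5 and Klf2. Zfp42 and Klf2 lie on chromosome 8.

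Compared directly, KO #4 and KO #8 differed in 9 of the 10 members in CMs, against 52.7% of all tested genes. Klf4 (-0.79 ± 0.18) and Tbx3 (-2.41 ± 0.17) were lower in KO #4, and 7 genes were higher in it. The widest gaps were 4.84 ± 0.57 for Nr0b1 (limma, adjusted p = 3.97e-05), 4.06 ± 0.55 for Prdm14 (limma, adjusted p = 0.000112), 3.94 ± 0.25 for Zfp42 (limma, adjusted p = 3.9e-07), 3.29 ± 0.21 for Esrrb (limma, adjusted p = 4.23e-07) and 3.05 ± 0.17 for Nanog (limma, adjusted p = 1.8e-07). The count was 9 whichever library was left out. All 10 members were lower in KO #4 library b than in library a, with a median ratio of 0.72 against 1.01 over all genes, and markers of residual pluripotent cells differed in the same order, as given below.

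Other genes of the naive state mostly moved in the direction of Nanog in CMs. Of 20 such genes, 13 were tested, of which 10 were higher and 1 lower in KO #4 and none higher and 9 lower in KO #8 (median log2 difference 1.18 and -1.90). Dppa5a, which marks undifferentiated cells, had 511.0 and 616.8 in WT, 1634.7 and 994.8 in KO #4 and 108.9 and 97.3 in KO #8. The exception in KO #4 was Tet2, which oxidises methylated cytosine, with 451.3 and 443.4 in WT, 244.2 and 172.5 in KO #4 and 511.7 and 547.9 in KO #8. Of 9 genes of LIF and STAT3 signalling 3 were tested, with Socs3 and Tcl1 higher and Osmr, a receptor subunit, lower in KO #4. In KO #8, Tcl1 and Osmr were lower and Socs3 was not called. The untested genes of this list all had a lower mean in KO #4 than in KO #8. The gap ranged from -13.2% of the mean base mean for Pim1 to -59.7% for Stat3 and -100% for Lifr. The naive-state genes that were not tested were above the limit for counts. For Pou5f1 and Sox2 the KO #4 mean exceeded the KO #8 mean by 148% and 221% of the mean base mean. This gap was smaller for Mybl2 (93.5%), Trim28 (48.2%), Tet1 (37.7%), Sall4 (16.8%) and Tdgf1 (7.68%). Pou5f1 and Tdgf1 are also on the list of residual pluripotent cells. These values do not give a difference from WT. Among 6 tested markers of residual pluripotent cells, 5 were higher in KO #4 and all 6 lower in KO #8. All of them but Gdf3, which was not called in KO #4, were already counted among the 13 genes above. Their summed normalised counts were 1429.4 and 1682.8 in WT, 4458.7 and 3021.1 in KO #4 and 349.3 and 330.8 in KO #8.

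Markers of other cell types moved beside them. Of 10 cardiomyocyte genes only Nppa had recovered counts and could be tested against WT, where it was lower in KO #4 and not called in KO #8. From the base means, all 10 had a lower mean in KO #4 than in KO #8. Among them were Tnnt2 (-76.5%), Myh6 (-67.3%) and Nkx2-5 (-143% of the mean base mean). Their difference from WT is not given by these values. Of 5 tested endoderm genes, 4 were lower in KO #4 and 1 in KO #8. The tested endothelium gene and the tested epithelium gene were lower in both clones. By contrast, 4 of 6 neural progenitor genes and 2 of 3 genes of the formative or primed epiblast were higher in KO #4, while Hoxb4 of the neural list was lower (76.5 and 46.3 in WT against 2.1 and 4.2 in KO #4). In KO #8, 2 of the 6 neural genes (Sox1 and Pax6) were higher and 1 (Dcx) lower, and 2 of the 3 formative or primed genes (Lef1 and Pou3f1) were lower. Sox1, an early neural factor, stood at 3525.9 and 3430.1 in KO #4 against 26.1 and 44.3 in WT and 121.1 and 138.3 in KO #8. Pax6 stood at 2795.3 and 2786.6 in KO #4 against 55.0 and 65.0 in WT. Of 4 germ cell genes, 2 were higher and 1 lower in KO #4, and 3 were lower in KO #8. Dppa3, higher in KO #4 and lower in KO #8, was already counted among the naive-state genes above. The KO #4 libraries of the CM stage therefore stood apart from WT in genes of several cell types, and the part of these in the values of the 10 members was not tested.

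In NPCs, few members passed the test, and the libraries of a group differed more. Of 9 members, 1 was called lower in KO #4 (3.02% of all 9512 tested genes) and 1 higher in KO #8 (7.51%). At an unadjusted p under 0.05 there were 3 in KO #4 and 4 in KO #8. The median log2 difference of the 9 genes was -0.51 in KO #4 and 0.60 in KO #8, beside -0.01 and -0.00 over all tested genes. Klf5 had 226.2 and 232.6 in WT, 141.0 and 114.7 in KO #4 and 209.7 and 268.9 in KO #8, a log2 difference of -0.85 ± 0.19 in KO #4 (limma, adjusted p = 0.0289). Klf2 had 335.1 and 419.4 in WT, 363.0 and 335.9 in KO #4 and 497.7 and 876.8 in KO #8, a log2 difference of 0.82 ± 0.23 in KO #8 (limma, adjusted p = 0.0494). That of Klf5 was lost without any 1 of the WT and KO #4 libraries (limma, adjusted p between 0.113 and 0.245). The call of Klf2 held without KO #8 library a and was lost without any other library. It fell to 0.29 (limma, adjusted p = 0.276) when the libraries were scaled on genes of chromosome 8, whose median was 0.52. Without KO #8 library a, 3 members were called in KO #4 and 4 in KO #8, and without KO #8 library b 3 and 0.

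Nanog had normalised read counts of 394.7 and 662.4 in WT, 323.4 and 342.1 in KO #4 and 538.3 and 971.9 in KO #8. Esrrb had 242.3 and 423.5 in WT, 242.3 and 209.7 in KO #4 and 373.5 and 632.9 in KO #8. The set of counts of Nanog was the only one found, where 0.566 sets were expected by chance, more than for the other members in NPCs. In both genes, library b of WT and KO #8 was well above library a, and the groups of WT and KO #8 overlapped. In Zfp42 too library b was the higher one of each group, with 144.8 and 257.7 in WT, 168.0 and 237.8 in KO #4 and 290.7 and 552.2 in KO #8, and in Prdm14, with 18.0 and 37.6 in WT, 12.6 and 19.8 in KO #4, and 43.2 and 73.0 in KO #8. For Tfcp2l1 the counts were 184.6 and 332.8 in WT, 169.0 and 131.4 in KO #4 and 266.4 and 376.5 in KO #8. Klf4 lay between 107.2 and 191.1 in all 6 libraries. Nr0b1 alone was higher in every knockout library, with 35.0 and 36.5 in WT, 57.0 and 68.8 in KO #4 and 62.1 and 58.6 in KO #8. Its log2 difference of 0.79 ± 0.29 and 0.74 ± 0.29 was not called (limma, adjusted p = 0.143 and 0.137).

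**Figure D4:**
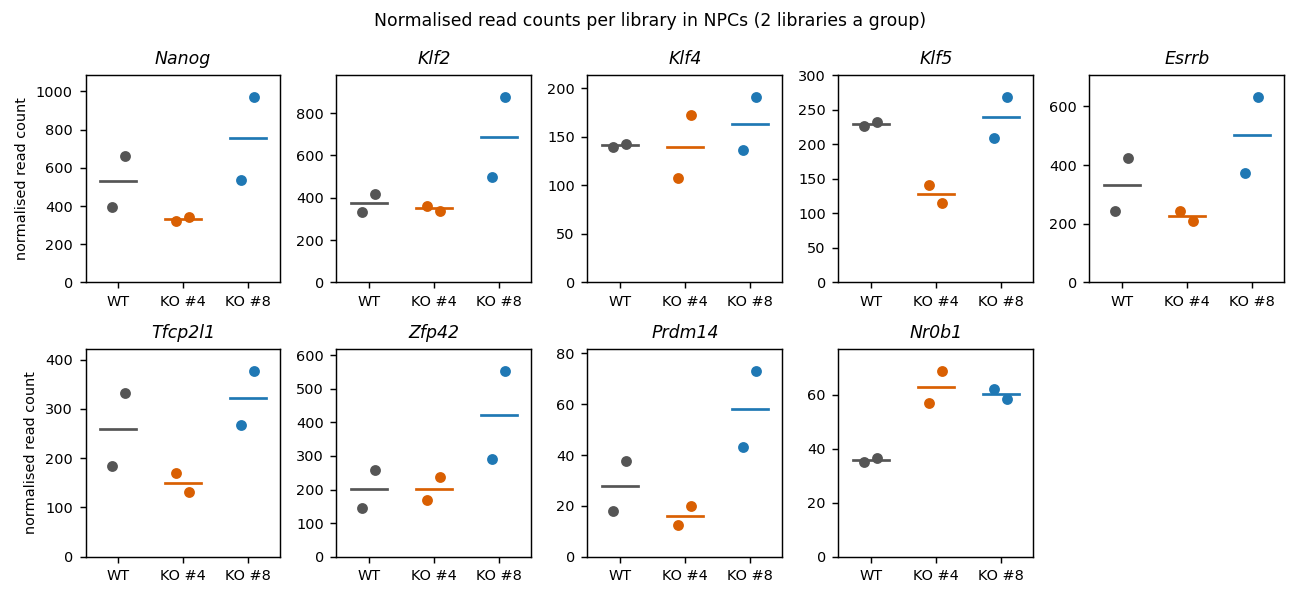
Normalised read count of each library (points, a to the left and b to the right) and group mean (lines) for the 9 genes with recovered counts in NPCs, each panel starting at 0. Library b of KO #8 is the highest of the 6 for 8 of the genes, and Nr0b1 is higher in the 4 knockout libraries than in WT.

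The ratio of library b to library a had a median over the 9 genes of 1.68 in WT, 1.06 in KO #4 and 1.69 in KO #8, where the median over all genes was 1.00, 1.00 and 1.03. Markers of residual pluripotent cells moved with it, with a summed normalised count over 8 genes of 1297.8 and 2142.7 in WT, 1449.1 and 1335.2 in KO #4 and 2121.5 and 3886.5 in KO #8. The sum over 6 neural progenitor genes was 401.4 and 575.8 in WT, 1146.0 and 1421.8 in KO #4 and 969.4 and 2340.3 in KO #8, so that all knockout libraries lay above WT. Over all 9512 tested genes, 448 were called higher in KO #4 and 714 in KO #8. Of the neural progenitor genes, Fabp7, Pax6 and Sox1 (3 of 6) were called higher in both clones. Their part in the members' values was not tested. With limma, 0 of 9 members were called between the clones and 7 at an unadjusted p under 0.05, where 1.43% of all genes were called. Without KO #8 library a, 7 of 9 were called, all lower in KO #4, and without KO #8 library b, 1. The log2 difference KO #4 minus KO #8 was -1.12 ± 0.28 for Nanog (limma, adjusted p = 0.0919), -1.11 ± 0.29 for Esrrb (limma, adjusted p = 0.0986) and -1.77 ± 0.47 for Prdm14 (limma, adjusted p = 0.109). Of the other genes of the naive state, 14 of 20 were tested, of which 1 was called lower in KO #4 and 3 were called higher in KO #8.

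To ask whether the knockout effect differed between NPCs and CMs, both stages were put in 1 fit over 8034 genes, without Tbx3. In KO #8, 7 of 9 members had an effect in CMs below that in NPCs, against 17.2% of all genes called in either direction. The difference was -1.95 ± 0.37 for Nanog (limma, adjusted p = 0.00217), -2.55 ± 0.40 for Esrrb (limma, adjusted p = 0.000557), -2.41 ± 0.30 for Klf2 (limma, adjusted p = 0.00014) and -3.18 ± 0.46 for Zfp42 (limma, adjusted p = 0.00036). The NPC counts of Nanog, Klf2 and Zfp42 were found only in the wider region, where 0.566, 0.25 and 0.0196 sets were expected by chance. In KO #4, 5 of 9 were called, against 35.6% of all genes, with Nanog (2.22 ± 0.37, limma, adjusted p = 0.000278), Esrrb (1.84 ± 0.40, limma, adjusted p = 0.00228), Zfp42 (1.76 ± 0.46, limma, adjusted p = 0.00854) and Klf5 (0.70 ± 0.25, limma, adjusted p = 0.0436) higher in CMs and Klf4 (-1.40 ± 0.33, limma, adjusted p = 0.00439) lower. The call of Zfp42 in KO #4 was lost without NPC WT library b (limma, adjusted p = 0.0569), which brought the count to 3. That of Klf5 was lost without any 1 of 6 libraries (NPC WT a and b, NPC KO #4 b, CM WT a and b, CM KO #4 a).

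The gap between the clones can be followed through all 4 stages in the base means. Taking the median over the 10 genes, the KO #4 mean minus the KO #8 mean was 0.0339% of the mean base mean in naive cells, 4.87% in primed cells, -72.4% in NPCs and 130% in CMs. Over all genes the median was between -1.08% and -0.132%. The middle 90% of all genes widened as well, from -39.4% to 23.5% in naive cells to -119% to 112% in CMs.

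**Figure D5:**
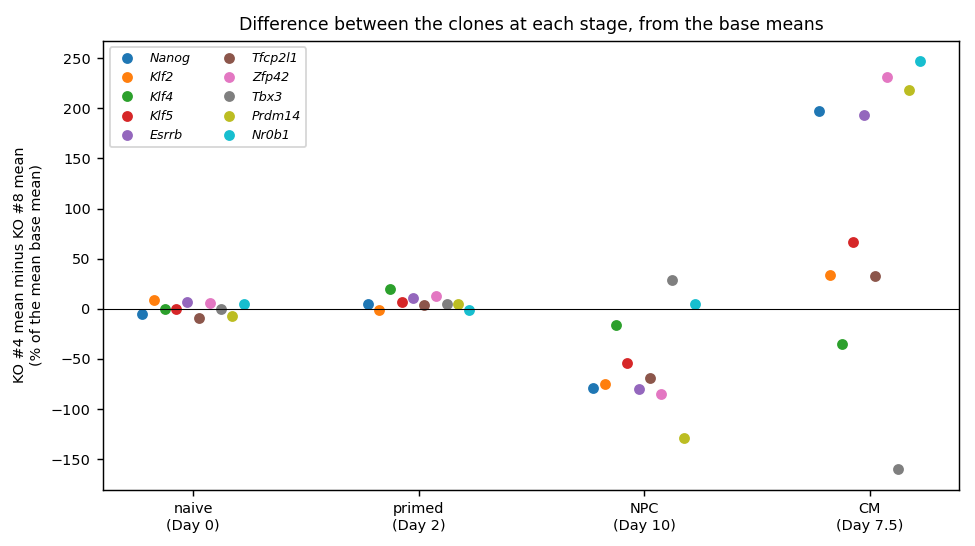
Difference between the mean of the KO #4 libraries and that of the KO #8 libraries as a percentage of the mean base mean, for each of the 10 genes at each stage. Values lie within 9% of 0 in naive cells, 8 of 10 are below 0 in NPCs and 8 of 10 above 0 in CMs, where Nr0b1 reaches 247% and Tbx3 -160%.

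Across the 12 libraries of NPCs and CMs, centred within each stage, Nanog was most like Utf1, with a Pearson correlation of 0.980 among 8034 genes. Esrrb (0.975), Uchl3 (0.972), Arl14epl (0.968) and Lncenc1 (0.967) came next. Zfp42 (0.967) ranked at place 6 and Prdm14 (0.945) at place 27, whereas Nr0b1 had 0.870, Klf5 0.779, Klf2 0.548, Tfcp2l1 0.509 and Klf4 -0.353. These values share their libraries and rest mostly on the CM groups, so they describe likeness in this experiment only. They also use the NPC counts of Nanog, for which 0.566 sets were expected by chance.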

How the data were processed

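RNA-seq of V6.5 mESCs was measured in 27 libraries, grouped by the labels into WT, KO #4 and KO #8 at 4 stages. Per the labels and the methods, the authors trimmed reads with Trim Galore 0.6.7, aligned them to mm9 with HISAT2 2.2, counted them per gene with featureCounts and normalised them with DESeq2 1.46.0. The strand setting of the counting is not given in the sources used here, so overlapping and antisense genes may share reads. The 8 deposited tables hold 1 usable column, the base mean, a signal averaged by the authors over WT and 1 clone. The other columns hold the authors' own comparisons (log2 fold changes with errors, test statistics and p-values) and were not used.

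Whole counts per library were recovered where 1 set of counts reproduced both base means of a stage to 10 digits, for base means of at most 1000 in the smaller and 2000 in the larger table. The libraries of a group were first held to the limit on their difference given in the results. A set was accepted if at most 0.5 such sets were expected by chance, or if it was the only one in a wider search. This limit and the wider search were set after it was seen which of the 10 genes they bring in, and the use of the authors' size factors as scaling was also decided after the data were seen. Genes with a mean normalised count of at least 10 were tested with limma 3.58.1 in R 4.3.3 (lmFit, eBayes with trend, two-sided, Benjamini-Hochberg adjustment over all genes tested, threshold 0.05) on log2(normalised count + 1), with the 3 groups of a stage in 1 fit. A fold change on this scale understates the change of genes with few reads. Base means were handled with Python 3.11.15, numpy 2.4.6, pandas 2.3.3 and numba 0.67.0, and figures were drawn with matplotlib 3.10.9. The recovery and the fit were tried on simulated data. These were drawn with 1 small setting of the spread for all genes, so genes whose libraries lie far apart were not probed.

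A fit over all 12 groups, tests in naive cells, stage tests against naive cells and the difference between naive and primed effects could not be run, since naive counts were not recovered. Levels as base mean per 1000000 of a table's summed base means (CPM), a joint fit of NPCs and CMs and a likeness to Nanog over 12 libraries replace them. Alternatives were other scalings, pseudocounts, filters, weights and recovery limits, a fit without the other clone, a minimum size of change and the omission of each library. Genes named beside the 10 are Zfp512b, members of lists of markers (formative or primed epiblast, neural progenitor, cardiomyocyte, endoderm, endothelium, epithelium, germ cell, residual pluripotent cells), of LIF and STAT3 signalling and of other naive-state genes, and the 5 genes most like Nanog. The 10 genes and the lists were chosen with earlier results of these data known. Promoter bases come from RefSeq on GRCm38.p6, a later build than mm9, and no coordinate was carried over between the builds.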

Additional observations from a re-analysis of the deposited data

Results flagged for a closer look

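The effect of the knockout differed between CMs and NPCs by a test of the difference itself (CM effect minus NPC effect on the log2 scale, limma, adjusted over 8034 genes). In KO #4 this held for Nanog (2.22), Esrrb (1.84), Zfp42 (1.76), Klf5 (0.70) and Klf4 (-1.40). In KO #8 it held for Nanog (-1.95), Esrrb (-2.55), Zfp42 (-3.18), Klf2 (-2.41), Klf5 (-1.50), Nr0b1 (-3.59) and Prdm14 (-3.86). Nanog, Esrrb, Zfp42 and Klf5 thus had a difference of opposite sign in the 2 clones. The WT libraries are shared by both.

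In CMs the 2 clones differed from each other (KO #4 minus KO #8, log2, limma) in Nanog (3.05), Esrrb (3.29), Zfp42 (3.94), Nr0b1 (4.84), Prdm14 (4.06), Klf5 (1.31), Klf2 (0.77), Klf4 (-0.79) and Tbx3 (-2.41). More than every second tested gene (52.7%) differed between the clones at this stage. Groups held 2 libraries each outside the naive state, so no library could be examined as standing apart from its group.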

How the results depend on the processing

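No paired analysis was possible because the base means carry no replicate number, and recovered libraries could not be tied to one. No value past the threshold changed direction. In NPCs, 3 members were called in KO #4 with only the clone and WT in the fit, and 0 with voom weights (2 at an unadjusted p under 0.05). In KO #8, 0 were called in NPCs with the pseudocount 0.5 (4 at an unadjusted p under 0.05), without the filter on low counts (3), with the clone and WT only (2) and with voom weights (4). With the recovery limit 0.1, 0 were called as well (3 at an unadjusted p under 0.05), but Klf2, the member called in the main fit, was not tested there. That limit, chosen after seeing the data, leaves fewer genes to test. With it 4 members were called between the clones in NPCs out of 6, and 3 in each clone between CMs and NPCs out of 4, while in CMs 5 of 6 were called in KO #4 (4 higher, 1 lower) and 6 of 6, all lower, in KO #8. Klf2, Tfcp2l1, Tbx3 and Prdm14 were not tested under it in CMs, and Nanog, Klf2 and Zfp42 were not tested under it in NPCs. Members missing at either stage, Nanog, Klf2 and Zfp42 among them, were not in its comparison of CMs and NPCs.

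With each library left out in turn, the number called between the clones was 9 to 9 in CMs, 0 to 7 in NPCs and 0 to 0 in primed cells. Against WT it was 6 to 8 in CMs, 0 to 3 in NPCs and 2 to 2 in primed cells for KO #4, and 7 to 9, 0 to 4 and 2 to 2 for KO #8. Between CMs and NPCs it was 3 to 7 in KO #4 and 7 to 8 in KO #8. Where a group then held 1 library, it was assumed to vary like the others. Of 594 single values with a library left out, 24 lost and 27 gained a call. Of the rest, 15 values, none of them called, changed sign. In NPCs the log2 difference of KO #4 from WT then ranged from -0.26 to 0.06 for Klf2, -0.39 to 0.29 for Klf4 and -0.36 to 0.46 for Zfp42 (-0.20 without KO #4 library b). That of KO #8 ranged from -0.05 to 0.44 for Klf4, -0.13 to 0.23 for Klf5 and -0.07 to 0.78 for Tfcp2l1. KO #4 minus KO #8 in NPCs ranged from -0.58 to 0.09 for Klf4 and -0.08 to 0.19 for Nr0b1, and in primed cells from -0.04 to 0.22 for Tbx3 and -0.01 to 0.18 for Prdm14. In CMs, KO #4 minus WT ranged from -0.31 to 0.02 for Klf5 and -0.28 to 0.80 for Tfcp2l1 (-0.04 without KO #4 library a), called at 0.80, and KO #8 minus WT from -0.74 to 0.34 for Tfcp2l1. Scaling by total counts or without chromosome 8 changed none of 63 calls. Scaled on chromosome 8 genes, Klf2 in NPCs was lower in KO #4 (-0.62, limma, adjusted p = 0.0363), and Zfp42 changed sign to -0.46 without a call. Reads limit Nr0b1 and Prdm14 most, with 2 to 9 reads per KO #8 library in CMs.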
